A study of Mus musculus with 9 samples.

Results

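Transcript levels of 9 genes that receive and relay interferon signals were compared between tumour cells of SCC2, SCC1 and LLC1. The genes were the rows of the deposited expression table for Ifnar1, Ifnar2, Ifngr1, Ifngr2, Stat2, Irf9, Irf3, Irf7 and Irf1, picked by symbol out of 15768 genes. LLC1 is a mouse line grown from a Lewis lung carcinoma. SCC2 and SCC1 are cell lines that were each raised from a single LLC1 cell by limiting dilution and kept for 5 to 8 passages in the same medium, so each stands for 1 clone. No passage number is known here for LLC1, so cloning and passage cannot be told apart in comparisons with it. All 3 lines carry the WT genotype label, all cells were untreated, and each line had 3 RNA-seq libraries. Values are FPKM, that is fragments scaled by gene length and by library depth.

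Interferons are secreted cytokines that warn cells of infection and shape how tumour cells are seen by immune cells. Type I interferons bind a receptor of the chains IFNAR1 and IFNAR2, and interferon gamma binds IFNGR1 and IFNGR2. JAK kinases attached to these chains then phosphorylate STAT proteins. STAT2 and IRF9 belong to the complex ISGF3, which binds the interferon-stimulated response element (ISRE), while STAT dimers bind the gamma-activated site (GAS). IRF3 and IRF7 switch on interferon genes downstream of nucleic acid sensors, and IRF1 drives many genes induced by interferon gamma.

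In SCC1, all 4 receptor chains and Stat2 were lower than in LLC1, at 0.616 to 0.88 times its mean, while Irf1 was 1.25-fold higher. In SCC2, Irf1 and Stat2 were lower than in LLC1 and Ifnar1 was 1.2-fold higher, and the other 3 receptor chains differed by less than the spread between libraries. Set against SCC1, SCC2 had more of 7 of the 8 genes that could be tested and less Irf1. In that comparison 37.0% of all tested genes were higher and 39.4% lower. The medians of chromosome 16, which holds Ifnar1, Ifnar2 and Ifngr2, and of chromosome 10, which holds Ifngr1 and Stat2, were both 0.28. With chromosome medians removed, Ifnar2, Ifngr2 and Stat2 no longer differed there at an adjusted p under 0.05. None of the changes of the 9 genes reached 2-fold. On the scale of log2(FPKM + 1) and with an adjusted p under 0.05, 2-fold or more was reached by few of all tested genes. The shares were 1.91% in SCC1 against LLC1, 1.58% in SCC2 against LLC1 and 3.35% in SCC2 against SCC1. For low genes this scale gives less than the ratio of FPKM. Irf7 was near the limit of detection in every line.

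The depth was alike in all libraries, with 17094808 to 19398657 fragments each, worked back from the FPKM values. Apart from Irf7, with 10 to 21 fragments per library, the genes rested on 142 to 1307 fragments in each library. Adjusted p-values come from limma over all 10519 tested genes, and each change is a difference in log2(FPKM + 1), which understates changes of low genes. No source states whether libraries of a line were separate cultures, so the spread behind the p-values may be technical. A lower level in such bulk libraries does not tell fewer expressing cells apart from less RNA per cell. Most genes of these lines differed: at the 0.05 level 70.1% were called for SCC1 against LLC1, 67.6% for SCC2 against LLC1 and 76.3% for SCC2 against SCC1. The corresponding counts of the 9 genes were 6, 3 and 8 of 8 tested, so a call alone did not set these genes apart. The libraries of the 2 lines did not overlap for 7, 3 and 8 of the 8 genes in the same comparisons, beside 72.3%, 70.7% and 77.9% of all tested genes. Their median absolute log2 changes were 0.26, 0.10 and 0.29, beside 0.17, 0.16 and 0.23 for all tested genes.

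**Figure D1:**
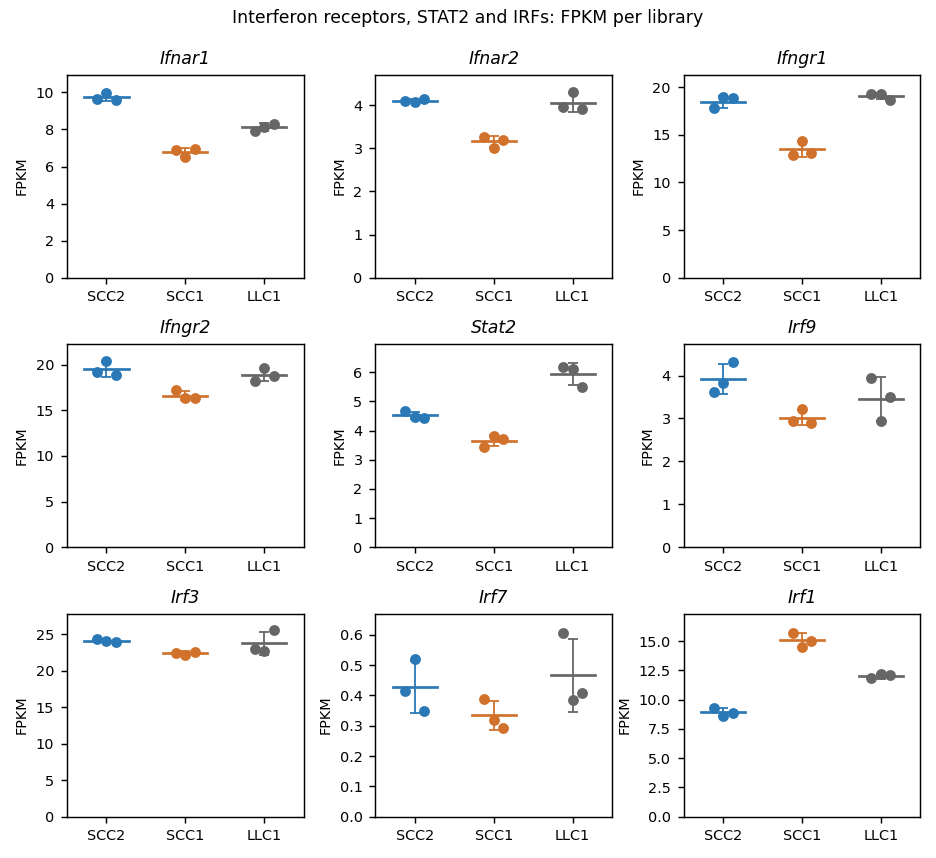
FPKM of the 9 genes in each library (points), with the mean (line) and SD (bar) of 3 libraries, for SCC2, SCC1 and LLC1. Each vertical axis starts at 0. Irf1 was highest in SCC1 and lowest in SCC2, whereas the receptor chains were lowest in SCC1.

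The type I interferon receptor has a signalling pair of chains, of which IFNAR2 binds interferon with the higher affinity and IFNAR1 completes the complex. Ifnar1 had 9.64, 9.98 and 9.59 FPKM in SCC2, 6.88, 6.51 and 6.94 FPKM in SCC1, and 7.90, 8.15 and 8.31 FPKM in LLC1. The 3 lines did not overlap, with SCC2 highest and SCC1 lowest. Ifnar1 therefore fell in SCC1 against LLC1 (log2 change -0.23, SE 0.0356, limma adjusted p = 1.20e-04) and rose in SCC2 against LLC1 (0.24, adjusted p = 1.05e-04). Between the subclones the log2 change was 0.47 (adjusted p = 1.95e-07), higher in SCC2. Ifnar2 had 4.11, 4.08 and 4.14 FPKM in SCC2, 3.26, 3.02 and 3.19 FPKM in SCC1, and 3.96, 4.30 and 3.91 FPKM in LLC1. SCC1 lay below both other lines, and the SCC2 values lay within those of LLC1. Ifnar2 fell in SCC1 (-0.28, limma adjusted p = 1.19e-04), and in SCC2 against LLC1 the change of 0.02 had a 95% interval of -0.08 to 0.11. The ratio of Ifnar1 to Ifnar2 FPKM was 2.37 ± 0.0695 in SCC2, 2.15 ± 0.0316 in SCC1 and 2.0 ± 0.115 in LLC1 (SD, n = 3 each). For this ratio an exact two-sided permutation test gave p = 0.1 for SCC2 against either other line, the smallest that 3 against 3 libraries can give, and p = 0.2 for SCC1 against LLC1. Over the 9 comparisons of 3 such ratios, the smallest Benjamini-Hochberg adjusted p of these exact tests was 0.15.

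Of the interferon gamma receptor, IFNGR1 is the main ligand-binding chain and IFNGR2 the chain that recruits JAK2. Ifngr1 had 12.9, 14.4 and 13.1 FPKM in SCC1, against 19.3, 19.3 and 18.7 FPKM in LLC1. This was the largest fall among the 4 receptor chains (log2 change -0.48, SE 0.0413, limma adjusted p = 9.96e-07). SCC2 had 17.8, 19.0 and 18.9 FPKM, which overlapped LLC1, and its change against LLC1 was -0.04 with a 95% interval of -0.13 to 0.05. Ifngr2 had 19.2, 20.4 and 18.9 FPKM in SCC2, 17.2, 16.3 and 16.3 FPKM in SCC1, and 18.2, 19.6 and 18.8 FPKM in LLC1. It was lower in SCC1 than in LLC1 (-0.17, limma adjusted p = 0.00145), and SCC2 and LLC1 overlapped (0.05, 95% interval -0.04 to 0.13). SCC2 exceeded SCC1 in both chains, by log2 changes of 0.43 for Ifngr1 and 0.22 for Ifngr2. Levels of the 2 chains were close in SCC2 (ratio Ifngr1 to Ifngr2 0.952 ± 0.039) and LLC1 (1.01 ± 0.0398), while SCC1 had less Ifngr1 than Ifngr2 (0.814 ± 0.07, SD, n = 3 each). The SCC1 ratios lay below those of both other lines (exact two-sided permutation p = 0.1, the smallest possible).

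Ifnar2, Il10rb, Ifnar1 and Ifngr2 lie next to each other, among tested genes, on chromosome 16. In RefSeq GRCm38.p6 Ifnar2 spans chr16:91372783-91405589, Ifnar1 chr16:91485032-91510523 and Ifngr2 chr16:91547059-91564007, and Ifngr1 lies apart at chr10:19591949-19610229. Il10rb encodes a shared chain of the receptors for interleukin 10 and interferon lambda, and had 4.21 ± 0.259 FPKM in SCC2, 3.59 ± 0.189 in SCC1 and 4.83 ± 0.35 in LLC1 (SD, n = 3 each). All 4 neighbours were lower in SCC1 than in LLC1 and higher in SCC2 than in SCC1. The median log2 change of the 330 tested genes of the chromosome was -0.08 in SCC1 against LLC1, 0.21 in SCC2 against LLC1 and 0.28 in SCC2 against SCC1. The 5 nearest tested genes on each side of Ifnar1 had a median of 0.15 in SCC2 against LLC1, with 6 of 10 higher and 1 lower. Once the median of chromosome 16 was removed, Ifnar1 changed by 0.02 in SCC2 against LLC1 (limma adjusted p = 0.626) and no longer passed. In SCC2 against SCC1, Ifnar1 stayed past the threshold at 0.19, while Ifnar2 (0.02, adjusted p = 0.716) and Ifngr2 (-0.06, adjusted p = 0.204) did not. In SCC1 against LLC1, Ifnar1 (-0.15) and Ifnar2 (-0.20) still passed, and Ifngr2 (-0.09, adjusted p = 0.0536) did not. Against LLC1, the changes of Ifnar2 and Ifngr2 in SCC2 became -0.20 and -0.17, both past the threshold. Whether gene copy number differed between the lines was not tested.

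**Figure D2:**
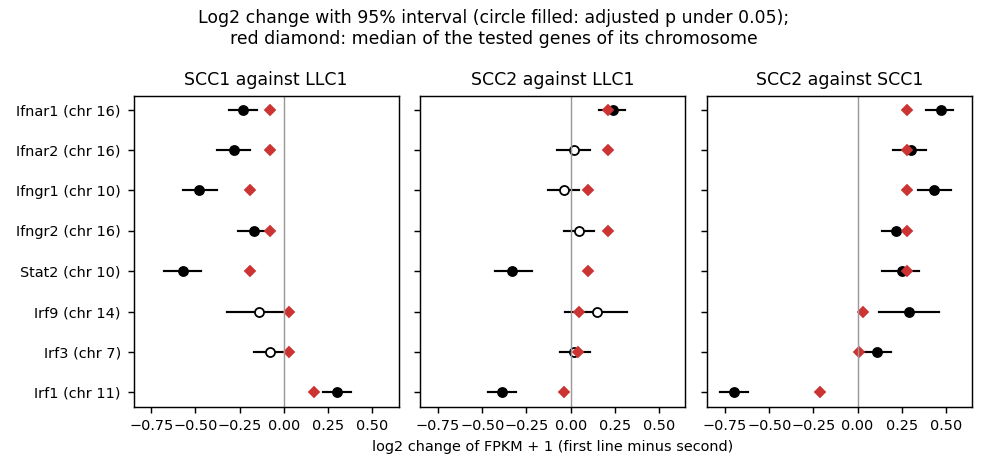
Log2 change of FPKM + 1 for the 8 tested genes in the 3 comparisons (circles, filled where the adjusted p was under 0.05), with 95% intervals, and the median of all tested genes of the same chromosome (red diamonds). For Ifnar1 the chromosome median lay inside the interval in SCC2 against LLC1. For Ifnar2, Ifngr1, Ifngr2, Stat2 and Irf1 it lay outside in both comparisons with LLC1, narrowly so for Ifngr2 in SCC1.

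STAT2 and IRF9 are the parts of ISGF3 that are specific to type I and III interferon signalling. Stat2 (chr10:128270498-128292853) had 4.67, 4.48 and 4.44 FPKM in SCC2, 3.45, 3.82 and 3.70 FPKM in SCC1, and 6.18, 6.12 and 5.51 FPKM in LLC1. The lines did not overlap and LLC1 was highest. The promoter stretch below is shown because Stat2 had the largest fall of the 9 genes in SCC1 and holds an ISRE core in the 250 bases before its start.
Stat2 (RefSeq GRCm38.p6, plus strand, chr10:128270248-128270320): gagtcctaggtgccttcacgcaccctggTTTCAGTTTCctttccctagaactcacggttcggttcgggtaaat
The capitals mark the match to the ISRE core GAAANNGAAA, here on the opposite strand, 222 to 213 bases before the start. Stat2 fell in SCC1 against LLC1 (log2 change -0.57, SE 0.0486, limma adjusted p = 7.93e-07) and in SCC2 against LLC1 (-0.33, adjusted p = 9.54e-05), and was higher in SCC2 than in SCC1 (0.25, adjusted p = 5.85e-04). With the medians of chromosome 10 removed, both falls against LLC1 remained (-0.38 and -0.42), and the change between the subclones turned to -0.03 (adjusted p = 0.594).

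Irf9 (chr14:55603985-55610030), the DNA-binding part of ISGF3, had 3.62, 3.83 and 4.31 FPKM in SCC2, 2.95, 3.21 and 2.89 FPKM in SCC1, and 3.94, 2.93 and 3.50 FPKM in LLC1. LLC1 spread across much of the range of both subclones, so neither differed from it beyond the error (SCC1 -0.14, adjusted p = 0.124, and SCC2 0.15, adjusted p = 0.121, by limma). Without LLC1 replicate 2 the change in SCC1 was -0.23 (adjusted p = 0.0127), and without LLC1 replicate 1 that in SCC2 was 0.22 (adjusted p = 0.023). SCC2 was above SCC1 in every library (0.29, limma adjusted p = 0.00542). The ratio of Irf9 to Stat2 was 0.867 ± 0.0984 in SCC2 and 0.825 ± 0.0395 in SCC1, against 0.584 ± 0.0914 in LLC1. The ratios of both subclones lay above those of LLC1 (exact two-sided permutation p = 0.1, the smallest possible).

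IRF3 is present in most cells before infection and is activated by phosphorylation, whereas IRF7 is itself induced by type I interferon. Irf3 (chr7:44997648-45002848) had the highest level of the 9 genes in each line, with 24.3, 24.1 and 24.0 FPKM in SCC2, 22.4, 22.1 and 22.6 FPKM in SCC1, and 23.0, 22.7 and 25.6 FPKM in LLC1. The SCC1 libraries lay just below those of LLC1, and LLC1 replicate 3 stood above all others. Neither subclone passed against LLC1 (limma adjusted p = 0.077 for SCC1 and 0.605 for SCC2). The change in SCC2 against SCC1 was small (0.11, adjusted p = 0.0261), and it no longer passed without SCC2 replicate 1 or 2 or SCC1 replicate 1 or 2, with adjusted p-values of 0.0522 to 0.0741. Irf7 (chr7:141263183-141266499) had 0.416, 0.519 and 0.35 FPKM in SCC2, 0.388, 0.319 and 0.294 FPKM in SCC1, and 0.604, 0.385 and 0.409 FPKM in LLC1. All lines overlapped, and Irf7 stayed under the filter of 1 FPKM. In a fit with no filter its log2 changes were -0.13, -0.04 and 0.10 for SCC1 against LLC1, SCC2 against LLC1 and SCC2 against SCC1, with limma adjusted p-values of 0.113, 0.687 and 0.237. At 10 to 21 fragments a modest difference could not have been seen.

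IRF1 is a transcription factor induced by interferon gamma and by NF-kB that acts on antigen processing and growth control genes. Irf1 (chr11:53770014-53778374) had 9.28, 8.64 and 8.88 FPKM in SCC2, 15.7, 14.5 and 15.0 FPKM in SCC1, and 11.8, 12.2 and 12.1 FPKM in LLC1. The 3 lines were fully apart, in the reverse order of Ifnar1. Irf1 rose in SCC1 (log2 change 0.30, SE 0.0365, limma adjusted p = 1.58e-05) and fell in SCC2 (-0.39, adjusted p = 2.04e-06), each against LLC1. SCC2 had 0.592 times the level of SCC1 (-0.70, adjusted p = 7.32e-09). The median of chromosome 11 was 0.17 in SCC1 against LLC1, and with it removed Irf1 still passed at 0.14. In SCC2 against LLC1 the chromosome median was -0.04 and the change with it removed was -0.36.
Irf1 (RefSeq GRCm38.p6, plus strand, chr11:53769889-53769967): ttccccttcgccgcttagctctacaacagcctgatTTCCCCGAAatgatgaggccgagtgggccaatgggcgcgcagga
Ifnar2 (RefSeq GRCm38.p6, plus strand, chr16:91372534-91372612): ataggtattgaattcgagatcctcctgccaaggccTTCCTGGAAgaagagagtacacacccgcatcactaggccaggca
These stretches are shown because Irf1 and Ifnar2 were the only members with a match to the GAS consensus TTCNNNGAA, in capitals, 90 to 82 and 214 to 206 bases before their starts. All 9 genes had a RefSeq promoter, with 11 starts in all, and of the 250 bases before each start, those of 3 genes, Stat2 included, held either motif. Over the same 250 bases of 32851 promoters of all genes, 7.02% held the GAS consensus and 2.98% the ISRE core on either strand. These shares are per promoter and for each motif alone, so they do not match the count of genes with either motif. A match describes the letters and not a bound site.

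Among the 9 genes, Ifnar1 and Irf1 changed in opposite directions in the subclones, SCC1 lower and SCC2 higher for Ifnar1 and SCC1 higher and SCC2 lower for Irf1. These 2 of 8 tested genes (25.0%) stand beside 22.4% of all tested genes that passed in opposite directions, 9.67% with SCC1 lower and SCC2 higher and 12.7% with the reverse. Both subclones were set against the same LLC1 libraries. In SCC1 against LLC1, 1 gene rose and 5 fell, where 39.2% of all genes rose and 30.9% fell. In SCC2 against LLC1, 1 rose and 2 fell, where 34.7% rose and 32.9% fell. In SCC2 against SCC1, 7 rose and 1 fell, where 37.0% rose and 39.4% fell. Of the 7 that rose there, 3 are on chromosome 16 and 2 on chromosome 10, and the medians of both chromosomes were 0.28. With chromosome medians removed, 5 of the 8 genes passed in that comparison, and 5 in SCC2 against LLC1.

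Only Irf1 and Stat2 had line means that spanned at least 1.5-fold and reached 5 FPKM. Over the 9 libraries, the patterns most like that of Irf1 among 1317 such genes were those of Hilpda, a lipid droplet protein (Pearson r = 0.997), Arid2, a chromatin remodelling subunit (0.996), and the keratin Krt8 (0.996). Krt8 had 75.3 ± 1.74 FPKM in SCC2, 155.0 ± 3.26 in SCC1 and 113.0 ± 1.14 in LLC1 (SD, n = 3 each). The patterns most like that of Stat2 were those of Ece1, the endothelin-converting enzyme (0.989), Ccdc163 (0.985) and Arhgap42 (0.985). With 3 lines these coefficients mostly reflect the order and spacing of the line means.

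The kinases of the JAK family were lower in SCC1 as well. Of Il10rb and the 4 JAK kinases, all 5 fell in SCC1 against LLC1 (median log2 change -0.44, beside 0.03 for all tested genes), 3 fell and 0 rose in SCC2 against LLC1, and all 5 were higher in SCC2 than in SCC1. Of all tested genes, 30.9% fell in SCC1 and 32.9% in SCC2 against LLC1, and 37.0% were higher in SCC2 than in SCC1. Jak1, which serves both interferon receptors, had 52.6, 53.4 and 54.3 FPKM in SCC2, 38.4, 40.2 and 38.6 FPKM in SCC1, and 65.4, 66.8 and 64.4 FPKM in LLC1. LLC1 was highest and SCC1 lowest, with no overlap (SCC1 log2 change -0.73, SE 0.0245, limma adjusted p = 3.42e-10, and SCC2 -0.29, adjusted p = 9.60e-07). Jak2, the partner of IFNGR2, had log2 changes of -0.44 in SCC1 and -0.26 in SCC2, and Tyk2, the partner of IFNAR1, -0.18 and -0.01, of which the last did not pass. In SCC1 against LLC1 the median of chromosome 9, which holds Tyk2, was -0.19, close to the change of Tyk2. The medians of chromosomes 4 and 19, which hold Jak1 and Jak2, were -0.33 and -0.07. With chromosome medians removed, 4 of the 5 passed in SCC1 against LLC1, all 5 in SCC2 against LLC1 and 3 in SCC2 against SCC1.

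Stat6, the mediator of interleukin 4 signals, had 48.4 ± 0.445 FPKM in SCC2, 31.8 ± 0.90 in SCC1 and 38.8 ± 1.24 in LLC1. It fell in SCC1 and rose in SCC2 (log2 changes -0.28 and 0.31, limma adjusted p = 3.91e-06 and 1.62e-06). Stat3, the mediator of interleukin 6 signals, fell in both subclones, with 13.7 ± 0.526 FPKM in SCC2, 15.8 ± 0.768 in SCC1 and 21.5 ± 0.732 in LLC1 (SD, n = 3 each). Stat5a had 1.01 ± 0.138 FPKM in SCC1 against 2.02 ± 0.129 in LLC1. Of 5 other IRFs and IRF2-binding proteins tested, the corepressor Irf2bp2 rose in SCC1 (33.6 ± 0.58 against 23.3 ± 0.432 FPKM in LLC1) and Irf2bpl fell in both subclones. Irf2, an antagonist of IRF1, fell in SCC2 (2.57 ± 0.122 against 3.04 ± 0.118 FPKM in LLC1).

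The 5 interferon genes in the table, of 21 listed, never exceeded 2 fragments in a library, and the other interferon genes of the list were not analysed here. Genes of nucleic acid sensing went in both directions. Sting1, the adaptor of cytosolic DNA sensing, had 29.1, 29.5 and 29.3 FPKM in SCC2, 55.7, 54.3 and 56.0 FPKM in SCC1, and 46.4, 47.0 and 46.4 FPKM in LLC1, with no overlap (SCC2 against SCC1 -0.90, limma adjusted p = 9.60e-12). Cgas, the DNA sensor that feeds Sting1, had at most 6 fragments in a library, and the RNA sensor Ifih1 at most 3. Of 21 tested sensors and adaptors, 7 rose and 8 fell in SCC1 against LLC1, 4 rose and 11 fell in SCC2 against LLC1, and 7 were higher and 10 lower in SCC2 than in SCC1. Of all tested genes, 39.2% rose and 30.9% fell in SCC1 against LLC1, and 34.7% rose and 32.9% fell in SCC2 against LLC1. In SCC2 against SCC1, 37.0% were higher and 39.4% lower, so a call alone did not set this list apart. Among the sensors and adaptors higher in SCC2 is Tlr9, which passed the filter only through SCC2, so its direction there was fixed by the filter. The exonuclease Trex1 fell in both subclones, with 6.63 ± 0.338 FPKM in SCC2 and 4.97 ± 0.171 in SCC1, against 7.95 ± 0.368 in LLC1. Samhd1, which degrades dNTPs, fell in SCC2 and rose in SCC1, with 20.8 ± 0.233 FPKM in SCC2, 31.5 ± 0.602 in SCC1 and 25.6 ± 0.142 in LLC1 (SD, n = 3 each).

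Of 13 tested brakes on the pathway, 5 rose and 4 fell in SCC1 against LLC1, and 3 rose and 8 fell in SCC2 against LLC1. These counts include Usp18, which passed the filter only through SCC1, so its higher level there was fixed by the filter. Of all tested genes, 39.2% rose and 30.9% fell in SCC1 against LLC1, and 34.7% rose and 32.9% fell in SCC2 against LLC1. Socs3, an inhibitor of JAK signalling, fell in both subclones (17.4 ± 0.90 FPKM in SCC2 and 17.9 ± 1.01 in SCC1, against 29.9 ± 1.41 in LLC1). Socs1, which inhibits interferon gamma signalling most directly, had 19.3 ± 0.652 FPKM in SCC2, 14.2 ± 1.21 in SCC1 and 15.9 ± 0.678 in LLC1. Ptpn6, the phosphatase SHP-1, had 1.24 ± 0.134 FPKM in SCC2 against 3.64 ± 0.031 in LLC1 (limma adjusted p = 5.71e-09).

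**Figure D3:**
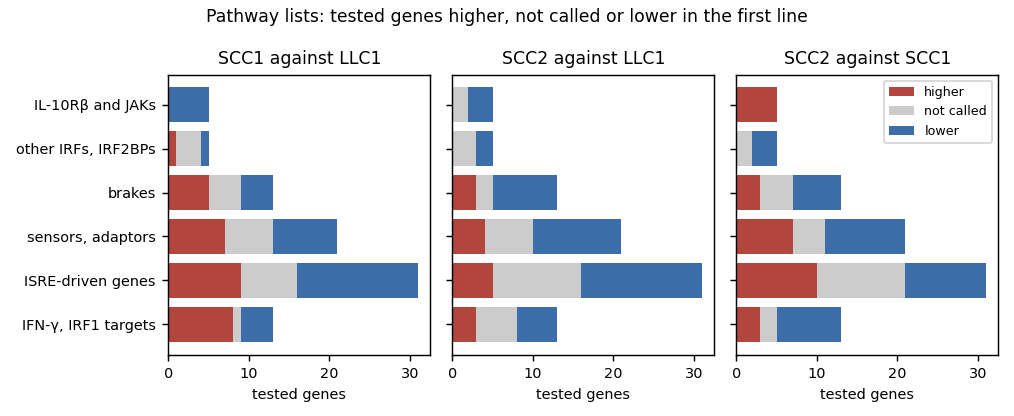
Number of tested genes of 6 pathway lists that were higher, not called or lower in the first-named line, for the 3 comparisons. Il10rb and the 4 JAK kinases were all lower in SCC1 than in LLC1 and all higher in SCC2 than in SCC1, whereas the ISRE-driven genes split between both directions.

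Genes driven by the ISRE did not move as a block. Of the 59 listed genes in the table, 28 were not tested, among them the strongly inducible Isg15, Ifit1, Ifit3, Oas2 and Rsad2. Isg15, a ubiquitin-like protein and a standard marker of interferon exposure, had 4, 9 and 5 fragments in SCC2, 1, 2 and 4 in SCC1, and 8, 14 and 6 in LLC1. Of the 31 tested genes, 9 rose and 15 fell in SCC1 against LLC1 (median -0.12), 5 rose and 15 fell in SCC2 against LLC1 (median -0.08), and 10 were higher and 10 lower in SCC2 than in SCC1 (median -0.03). The shares of all tested genes, in the same order, were 39.2% and 30.9%, 34.7% and 32.9%, and 37.0% and 39.4%. Ifit2, Ifitm2, Tor3a and Lgals3bp were lower in SCC1 and higher in SCC2 than in LLC1, while Ifi35, Ifitm1, Ifitm3, Parp10 and Rnf213 did the reverse. These 9 of 31 (29.0%) compare with 22.4% of all tested genes.

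Ifitm1, a membrane protein that blocks virus entry, had 36.8, 38.1 and 38.3 FPKM in SCC2, 132.0, 133.0 and 132.0 FPKM in SCC1, and 50.6, 52.6 and 51.9 FPKM in LLC1. SCC1 stood far above the other lines (log2 change against LLC1 1.34, SE 0.0219, limma adjusted p = 1.77e-12). Its relative Ifitm3 had 708.0 ± 13.7 FPKM in SCC1 against 433.0 ± 4.6 in LLC1, and reads could be shared between these similar genes. Lgals9, the lectin galectin 9, had 5.44, 5.37 and 5.84 FPKM in SCC2, 1.75, 1.73 and 1.93 FPKM in SCC1, and 7.08, 6.21 and 6.78 FPKM in LLC1. SCC1 had 0.27 times the LLC1 level (-1.45, adjusted p = 6.56e-10). Ifit2, which binds RNA and restrains translation, had 7.66 ± 0.181 FPKM in SCC2, 4.14 ± 0.0492 in SCC1 and 5.54 ± 0.349 in LLC1. The order of the lines for Ifit2, Tor3a and Lgals3bp was that of Ifnar1, and the order for Ifitm1 and Parp10 was that of Irf1. Of the 31 tested genes, 4 passed in the directions of Ifnar1 and 5 in those of Irf1. For all tested genes these shares were 9.67% and 12.7%. A link between these genes and Ifnar1 or Irf1 was not tested.

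**Figure D4:**
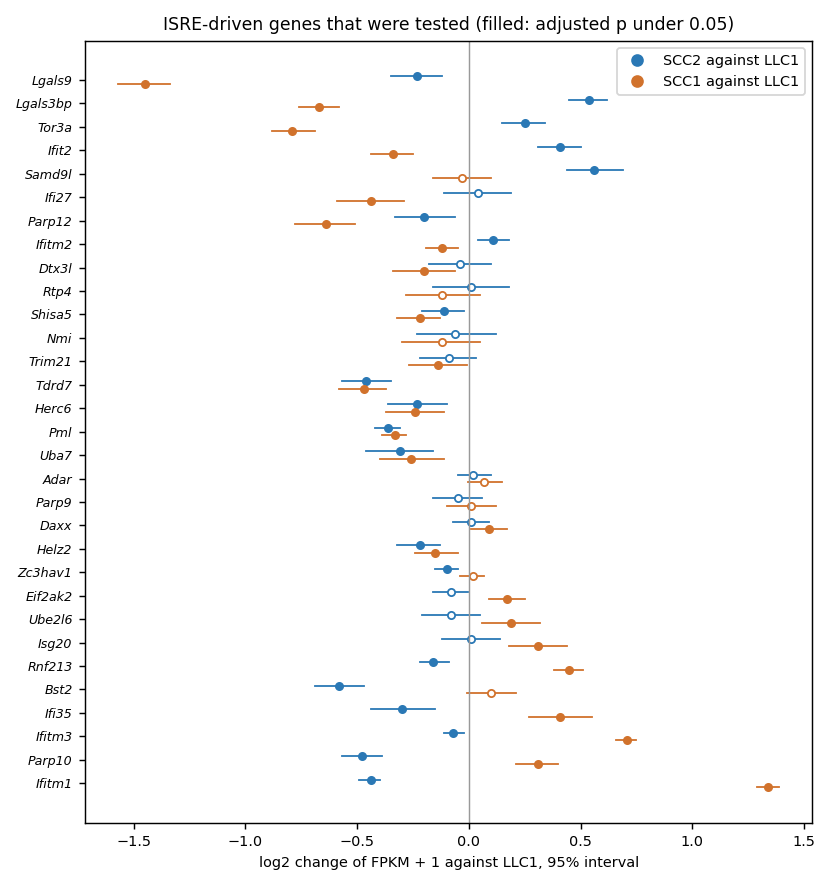
Log2 change of FPKM + 1 against LLC1 with 95% intervals for the 31 tested ISRE-driven genes, in SCC2 (blue) and SCC1 (orange), sorted by SCC2 against SCC1, with filled points where the adjusted p was under 0.05. Lgals9, Lgals3bp and Tor3a at the top fell in SCC1, and Ifitm1 at the bottom rose in SCC1 by 1.34.

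Of 13 tested targets of interferon gamma and IRF1, 8 rose and 4 fell in SCC1 against LLC1 (median 0.24), 3 rose and 5 fell in SCC2 against LLC1 (median -0.04), and 3 were higher and 8 lower in SCC2 than in SCC1 (median -0.20). Of these 13, Irgm2 and Igtp passed the filter only through LLC1, which fixed their direction. Psmb8 passed it only through SCC2 and LLC1, with all SCC1 libraries under 1 FPKM, which shaped its lower level in SCC1. Of all tested genes, 39.2% rose and 30.9% fell in SCC1 against LLC1, and 34.7% rose and 32.9% fell in SCC2 against LLC1. In SCC2 against SCC1, 37.0% were higher and 39.4% lower. Psmb10, an immunoproteasome subunit, had 10.2 ± 0.188 FPKM in SCC1 against 5.87 ± 0.417 in LLC1, and Psme1, a proteasome activator subunit, 64.9 ± 1.62 FPKM in SCC1 against 50.8 ± 1.59 in LLC1. Tap2, a subunit of the peptide transporter, went the other way, with 21.0 ± 0.755 FPKM in SCC2, 12.1 ± 0.974 in SCC1 and 18.5 ± 0.507 in LLC1. B2m, the light chain of MHC class I, had 232.0 ± 2.89 FPKM in SCC2, 308.0 ± 8.42 in SCC1 and 279.0 ± 5.85 in LLC1 (SD, n = 3 each). The guanylate-binding proteins, Cxcl9 and Cxcl10 were under 1 FPKM on average in every line.

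Markers of other cells were measured beside these genes. Of 11 macrophage and leukocyte markers 7 were in the table, and their summed level was 20.6 to 21.2 FPKM in SCC2, 30.9 to 35.2 in SCC1 and 18.0 to 19.4 in LLC1, most of it Cd14 and Cd68. Mrc1 and Ly6g reached 2.11 ± 0.195 and 1.14 ± 0.0751 FPKM in SCC1, against 0.267 ± 0.0504 and 0.0208 ± 0.0361 in LLC1, while Csf1r and Lyz2 were at most 0.0182 and 0.175 FPKM on average in any line. Itgax went the other way, with 1.72 ± 0.153 FPKM in SCC1 against 2.21 ± 0.15 in LLC1. Of 6 fibroblast markers 5 were in the table, with a sum of 6.08 to 6.77 FPKM in SCC2, 5.95 to 6.27 in SCC1 and 9.07 to 10.1 in LLC1, most of it Pdgfra and Dcn. Both subclones lay below LLC1 in this sum, as they did for Stat2, Jak1 and Socs3. Lum and Col1a2 of this list went the other way in SCC2, though not in SCC1. They had 0.994 ± 0.175 and 0.139 ± 0.0222 FPKM in SCC2, against 0.725 ± 0.0904 and 0.0877 ± 0.0378 in LLC1. The part of these marker differences in the changes of the subclones was not tested. The lymphocyte and endothelial sums stayed under 0.1 FPKM. Of the lung markers, Nkx2-1 and Sftpc were near 0 in all lines, and Krt8 and Krt18 made up most of a sum of 237.0 to 239.0 FPKM in SCC2, 446.0 to 456.0 in SCC1 and 336.0 to 345.0 in LLC1. Hopx, of the same list, ran in the reverse order, with 5.94 ± 0.497 FPKM in SCC2, 1.45 ± 0.202 in SCC1 and 3.76 ± 0.0961 in LLC1.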

How the data were processed

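The members and gene lists were chosen with earlier results of these data known. The authors deposited FPKM values for the 9 libraries, computed per the series' design text with cufflinks after Trimmomatic and hisat2. The sources used here give no tool version, annotation or strand setting for the counting. The submitters' processing notes name GRCm38 and mm10. The labels and the design text name different library kits. Of the spans of the 9 genes, only that of Stat2 overlapped a gene of the table, Apof, at under 0.1 FPKM. The span of Ifnar2 shared 6540 bases with the long noncoding RNA gene Gm36587, which has no expression value here. Whether its reads entered the Ifnar2 value was not tested.

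Genes with 1 FPKM or more in 3 or more libraries (10519) were tested as log2(FPKM + 1) by limma 3.58.1 under R 4.3.3, with a trended, robust variance, the line as only factor and all libraries together. Tests were two-sided at a Benjamini-Hochberg adjusted p of 0.05. The procedure was tested on simulated data. Whole fragments came back for all 12270 genes above 0 throughout, within 0.001 fragments and up to a common factor, and cover counting error only. Chromosomes and promoters came from RefSeq GRCm38.p6 by symbol (15664 matched). Tables and figures used Python 3.11.15.

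All 9 members are named. From each list, genes with the 4 smallest adjusted p in a comparison and those at 2-fold or more were eligible, and further list genes were chosen after their values were seen. Genes of like pattern were the 3 with the largest Pearson correlation over the libraries. Alternatives changed the pseudocount, filter, scaling, variance model, samples, replicate block, chromosome medians and unit (limma-voom on fragments). Some genes of these lists are not reported here.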

Additional observations from a re-analysis of the deposited data

Results flagged for a closer look

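Ifnar1 differed between the subclones in its change against LLC1: it was higher in SCC2 and lower in SCC1, and the difference between them was 0.47 on the log2 scale (limma adjusted p = 1.95e-07), higher in all 3 SCC2 libraries. The medians of chromosome 16 differed between the subclones by 0.28, and the difference with this removed was 0.19. With it removed, the change in SCC2 against LLC1 was 0.02 (limma adjusted p = 0.626) and no longer passed, while that in SCC1 against LLC1 was -0.15 (adjusted p = 0.00366). Irf1 differed in the other direction, lower in SCC2 and higher in SCC1, with a difference of -0.70 (limma adjusted p = 7.32e-09), lower in all 3 SCC2 libraries. With the median of chromosome 11 removed it was -0.48. Groups of 3 libraries are too small to single out a library.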

How the results depend on the processing

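The count of genes called among the 8 tested was 6 in SCC1 against LLC1, 3 in SCC2 against LLC1 and 8 in SCC2 against SCC1, and stayed within 1.5 times of these under all alternatives except the removal of chromosome medians, which gave 5 in SCC2 against LLC1 and 5 in SCC2 against SCC1. Leaving out each library gave 6 to 8, 3 to 4 and 7 to 8. That removal turned the direction of Ifnar2 (-0.20), Ifngr2 (-0.17) and Irf3 (-0.02) in SCC2 against LLC1 and of Ifngr2 (-0.06) and Stat2 (-0.03) in SCC2 against SCC1. It brought Ifngr1 in SCC2 against LLC1 past the threshold (-0.14). Leaving out each library gave -0.0049 to 0.05 for Ifnar2 and -0.01 to 0.08 for Irf3 in SCC2 against LLC1, lowest without LLC1 replicate 3 for Ifnar2 and without LLC1 replicate 2 for Irf3, and Irf3 passed without LLC1 replicate 3. Irf3 in SCC1 against LLC1 passed at -0.11 with quantile normalization, median-of-ratios scaling, chromosome medians removed and without LLC1 replicate 2. With a filter of 5 FPKM, 3 of the 5 genes of the JAK list could be tested (3, 1 and 3 called). The interferon gamma targets had 12 and 8 calls in SCC1 and SCC2 against LLC1, 21 and 19 of 41 with no filter, and 7 and 5 at 5 FPKM. The other IRFs had 2 calls in SCC2 against LLC1, and 1 at 5 FPKM or with quantile normalization. The cause of these moves was not tested beyond the number of genes tested. Libraries that share a replicate number did not deviate together (correlations -0.0683 to 0.089, and 2 of 9 libraries were most like their own number), so the numbers were not taken as pairs. The replicate block gave the same 6, 3 and 8 calls. Over all genes it gave 7306, 7046 and 7962 calls, against 7376, 7112 and 8031 without it. The low depth of Irf7 and Isg15 limits what can be said of them.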

Other observations

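The following interferon pathway genes were chosen after their values were seen. Of them only Usp18 passed the filter of 1 FPKM, and the others were not tested. Cish, a cytokine-induced SOCS family inhibitor, was listed at 0 in all 6 libraries of SCC2 and SCC1, against 37, 26 and 27 fragments in LLC1 (0.569, 0.411 and 0.453 FPKM). Irf8, a myeloid transcription factor of the IRF family, had 2, 1 and 5 fragments in SCC2, 16, 21 and 18 in SCC1, and 25, 23 and 22 in LLC1. Il15, a cytokine that sustains NK cells, had 35, 27 and 37 fragments in SCC2, 0, 0 and 1 in SCC1, and 11, 18 and 10 in LLC1. Casp1, the inflammasome protease, had 23, 22 and 29 fragments in SCC2 and 25, 18 and 8 in SCC1, against 1, 1 and 2 in LLC1. Usp18, which releases ISG15 from proteins and restrains IFNAR2 signalling, had 2, 5 and 2 fragments in SCC2, 49, 33 and 35 in SCC1, and 15, 22 and 17 in LLC1. It passed the filter only through SCC1.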
